A study of Rattus norvegicus with 12 samples.

Results

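The genes described here encode CXC chemokines that attract neutrophils (Cxcl1, Cxcl2, Cxcl3 and Cxcl6), their receptor Cxcr2, the neutrophil growth factor granulocyte colony-stimulating factor (Csf3) and its receptor Csf3r. The 7 genes were chosen by name, with the results of these arrays known, because the signals of Cxcl2 and Cxcl3 leaned towards rigid fixation at both ages. The differences between rigid and semi-rigid fixation are therefore given as a description and were not tested. The genes had 11 probe sets that the platform annotation assigns to 1 gene symbol, out of 31042 probe sets analysed, and all 11 were kept whatever their brightness. Cxcl3 had 5 of them and each other gene 1. Female Sprague-Dawley rats, an outbred strain, received an osteotomy of the left femur with a gap of 1.5 mm, and the hematoma was collected at day 3. The groups were young (12 weeks) or old (52 weeks) rats with a rigid external fixator (offset between bone and fixator 7.5 mm, groups YR and OR) or a semi-rigid one (offset 15 mm, groups YSR and OSR). Each group had 3 arrays, and each array was hybridized with the pooled RNA of 3 animals, so that differences between single animals cannot be seen. All rats carried the osteotomy, so the arrays hold no unoperated control.

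Neutrophils are among the first cells to enter a fracture hematoma. CXC chemokines released by macrophages, endothelium and stromal cells bind Cxcr2 on neutrophils and draw them along a gradient, while granulocyte colony-stimulating factor releases neutrophils from the bone marrow and prolongs their life. The chemokine genes are classic targets of the transcription factor NF-kappaB, which inflammatory cytokines such as interleukin-1 and tumour necrosis factor activate. All 4 chemokine genes lie on chromosome 14, in the order Cxcl2, Cxcl1, Cxcl3 and Cxcl6, with the platelet chemokine genes Pf4 and Ppbp between Cxcl3 and Cxcl6.

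The promoters of the ligands are shown because they share a short element that the choice of genes did not use. RefSeq promoter windows of 300 bases (GRCr8, 250 before and 50 after the start of the gene) were found for 5 of the 7 genes, and not for Cxcl3 and Csf3. Below are the 120 bases before the start, 5′ to 3′ on the strand of the gene, with the match to the NF-kappaB consensus in capitals. The windows are chr14:17479322-17479441 for Cxcl1, chr14:17467256-17467375 for Cxcl2 and chr14:17596418-17596537 for Cxcl6, each on the minus strand.
Cxcl1: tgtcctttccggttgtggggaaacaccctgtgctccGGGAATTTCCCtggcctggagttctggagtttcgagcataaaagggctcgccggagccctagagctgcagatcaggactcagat
Cxcl2: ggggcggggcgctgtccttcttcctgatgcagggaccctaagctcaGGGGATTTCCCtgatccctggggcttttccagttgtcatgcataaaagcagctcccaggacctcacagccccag
Cxcl6: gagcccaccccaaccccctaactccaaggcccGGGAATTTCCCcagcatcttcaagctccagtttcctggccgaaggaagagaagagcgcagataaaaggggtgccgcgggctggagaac
The 11 capitals hold matches on both strands that overlap each other. They begin 84 bases before the start in Cxcl1, 74 in Cxcl2 and 88 in Cxcl6, and are identical in Cxcl1 and Cxcl6. Over both strands the consensus occurred in 4.18% of 33469 promoter windows of this length, and the windows of Cxcr2 and Csf3r had 0 matches. The letters ATAAAA, part of a TATA box, occurred once in each of the 3 ligand windows, in 0 of both receptor windows and in 20.5% of all windows. The looser pattern of GGG and CC with 5 bases between, which includes the consensus, occurred in all 5 windows and in 47.3% of all windows. The motifs were chosen with the sequences in view, and a match in letters does not show binding.

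Signals are given as log2 of the deposited intensity, floored at 1, and the median over all probe sets of the mean log2 signal was 7.16. The brightest genes of red cells and platelets, the bulk of a blood clot, lay far above that median, while 1 of 8 platelet markers, Gp5, lay under it with a mean of 6.95. Hbb, a haemoglobin chain, had group means of 15.12 to 15.49 and Pf4, a platelet chemokine, of 14.20 to 14.66. For Gapdh, signal at the 3′ end exceeded that at the 5′ end, a sign of RNA breakdown, by 6.69 on the log2 scale in array 1 of YSR and by 2.95 in array 1 of OR. The excess lay between 1.02 and 1.59 in the YR arrays and between 0.33 and 0.49 in the remaining 7. Results are therefore also given without YSR array 1 and OR array 1. Their omission still leaves the excess higher in every YR array than in the remaining YSR arrays. It therefore does not even out this measure between the young groups. A mean of 11 skeletal muscle genes ranged from 6.89 to 12.74 between arrays and was lowest in OR array 2 and OSR array 1. In such bulk tissue fewer cells of a type and less RNA per cell cannot be told apart.

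Cxcl2, also known as macrophage inflammatory protein 2, was brighter with rigid fixation in young rats in every array and in old rats in the mean. Its signals were 2477.6, 1957.1 and 1655.7 in YSR arrays 1, 2 and 3 and 5416.3, 4959.2 and 2706.9 in YR. In old rats they were 1759.6, 1642.5 and 2289.0 in OSR and 3544.9, 4380.5 and 2179.3 in OR. Every YR array lay above every YSR array, whereas OR array 3 fell below OSR array 3. The log2 means were 10.97 ± 0.29 for YSR and 12.03 ± 0.54 for YR, and 10.87 ± 0.25 for OSR and 11.66 ± 0.52 for OR (SD, n = 3). Rigid exceeded semi-rigid fixation by 1.06 on the log2 scale in young rats (2.08-fold) and by 0.78 in old rats (1.72-fold), each with a standard error of 0.29. Without the 2 arrays of high Gapdh ratio the differences were 1.21 and 0.72. The Gapdh excess was above 1 in every YR array, against 0.33 and 0.42 in YSR arrays 2 and 3. Over the 12 arrays it correlated with Cxcl2 at r = 0.17, a value dominated by the excess of 6.69 in YSR array 1. That r therefore cannot show how the excess and Cxcl2 are related in the other arrays. The part of the excess in the young difference was not tested.

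**Figure D1:**
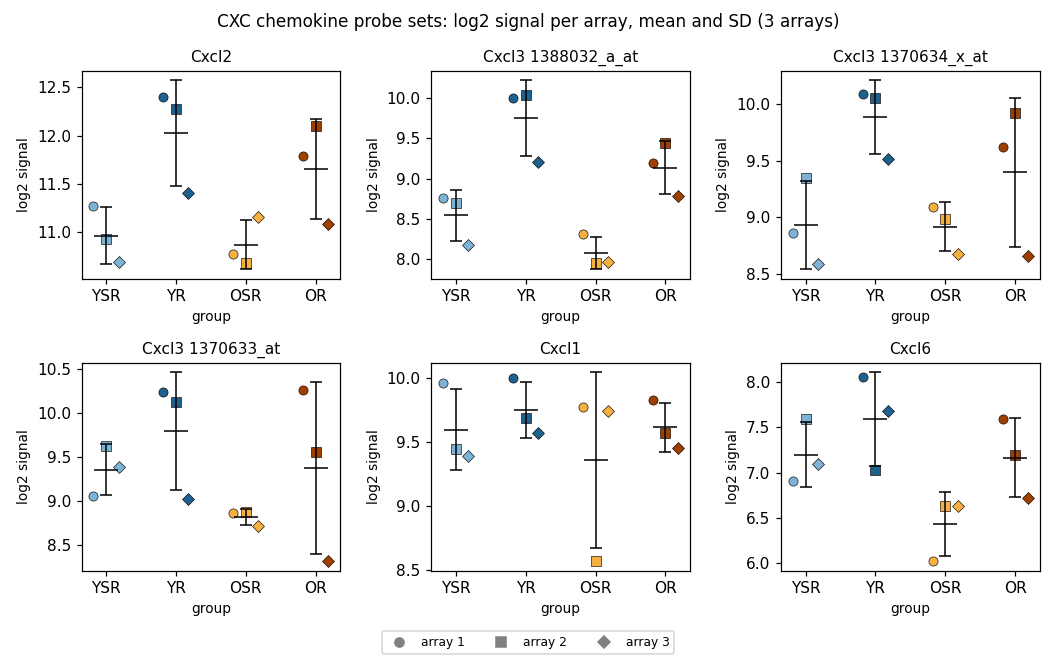
Log2 signal (vertical axes) of the 6 brighter chemokine probe sets in the 4 groups (horizontal axes), with 1 symbol per array (3 per group) and the group mean with SD as bars. For Cxcl3 1388032_a_at every rigid array lies above every semi-rigid array, and for Cxcl2 and the 3 Cxcl3 probe sets array 3 is the lowest of each rigid group.

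Cxcl3, another attractant of neutrophils, was read by 3 bright and 2 dim probe sets. At 1388032_a_at, the third in brightness, the signals of arrays 1, 2 and 3 were 433.3, 413.5 and 290.2 in YSR and 1026.6, 1050.2 and 588.5 in YR. They were 317.5, 248.5 and 250.1 in OSR and 583.7, 693.9 and 439.3 in OR. All 6 rigid arrays lay above all 6 semi-rigid arrays, although the lowest rigid array exceeded the highest semi-rigid array only by 439.3 against 433.3. This order was met by 1 of the 11 probe sets and by 0.151% of all probe sets, a comparison from which nothing is read because the genes were chosen on it. The log2 means were 8.54 ± 0.32 for YSR and 9.75 ± 0.47 for YR, and 8.08 ± 0.20 for OSR and 9.14 ± 0.33 for OR (SD, n = 3). The difference was 1.203 in young rats (2.30-fold) and 1.06 in old rats (2.08-fold), each with a standard error of 0.26. Averaged over age it was 1.13, the only one of the 11 of 1 or more, as were 2.69% of all probe sets. Without the 2 arrays of high Gapdh ratio it was 1.31 in young and 1.03 in old rats, while the Gapdh excess stayed higher in YR than in the remaining YSR arrays.

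The other bright probe sets of Cxcl3 leaned the same way by less. At 1370634_x_at arrays 1, 2 and 3 had log2 signals of 8.86, 9.35 and 8.58 in YSR, 10.09, 10.05 and 9.51 in YR, 9.09, 8.99 and 8.67 in OSR, and 9.62, 9.92 and 8.66 in OR. Rigid arrays lay above semi-rigid arrays without overlap in young but not in old rats, with differences of 0.96 and 0.48 (standard error 0.30 each), and 0.92 and 0.37 without the 2 arrays of high Gapdh ratio. At 1370633_at, the brightest, the values were 9.06, 9.63 and 9.40 in YSR, 10.24, 10.13 and 9.02 in YR, 8.86, 8.88 and 8.72 in OSR, and 10.26, 9.56 and 8.32 in OR. Here the groups overlapped at both ages, since YR array 3 was below every YSR array and OR array 3 below every OSR array. The differences were 0.43 in young and 0.56 in old rats (standard error 0.42 each), and 0.28 and 0.12 without the 2 arrays of high Gapdh ratio. The 3 probe sets were designed on the same database sequence. The suffix _x_at marks a probe set in which some probes can also bind other transcripts, and how far the transcripts of the related chemokines bind to it was not tested.

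The dim probe sets of Cxcl3 showed no common direction. The log2 signal ranged from 1.58 to 5.45 at 1388033_at and from 2.46 to 6.66 at 1393182_at, with mean signals at the percentiles 12.8 and 11.9 of all probe sets. At 1388033_at rigid minus semi-rigid fixation was -0.85 in young and 0.30 in old rats (standard error 1.04 each), and at 1393182_at it was -0.19 and 0.85 (standard error 1.08 each). Without the 2 arrays of high Gapdh ratio the values were -0.85 and 0.41 at 1388033_at and 0.18 and 1.17 at 1393182_at. The spread between arrays of a group reached an SD of 2.07 and 2.15 at these probe sets.

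Cxcl1, the rat homologue of the human growth-regulated oncogene chemokines, varied little between groups. Its log2 signals in arrays 1, 2 and 3 were 9.96, 9.45 and 9.39 in YSR, 9.999, 9.69 and 9.57 in YR, 9.77, 8.57 and 9.74 in OSR, and 9.83, 9.57 and 9.46 in OR. The groups overlapped at both ages, and OSR array 2 was the lowest of the 12. Rigid minus semi-rigid fixation was 0.15 in young and 0.26 in old rats (standard error 0.29 each), both less than the pooled SD between arrays of 0.40. Averaged over age the difference was 0.21 and 0.0078 without OSR array 2. In young and old rats it was 0.33 and 0.15 without the 2 arrays of high Gapdh ratio.

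Cxcl6, which serves the role of human CXCL5 and CXCL6 in the rat, was lowest in old rats with semi-rigid fixation. The log2 signals of arrays 1, 2 and 3 were 6.90, 7.60 and 7.10 in YSR, 8.06, 7.03 and 7.69 in YR, 6.02, 6.63 and 6.64 in OSR, and 7.60, 7.19 and 6.71 in OR. Every OR array was above every OSR array, by a smallest step from 6.64 to 6.71, while YR and YSR overlapped. Rigid minus semi-rigid fixation was 0.39 in young and 0.74 in old rats (standard error 0.37 each). Without the 2 arrays of high Gapdh ratio the values were 0.24 and 0.53. With a mean log2 signal of 7.10 the probe set was close to the median of all probe sets.

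Over the 11 probe sets, 3 had every YR array above every YSR array (Cxcl2 and Cxcl3 at 1370634_x_at and 1388032_a_at), against 3.65% of all probe sets, and 2 had every OR array above every OSR array (Cxcl6 and Cxcl3 at 1388032_a_at), against 5.74%. For the reverse order both counts were 0, against 5.73% and 5.04%. The group mean was higher with rigid fixation at both ages in 6, those of the 4 ligands without the dim Cxcl3 probe sets, against 25.5% of all probe sets. Nothing is read from these counts. The genes were chosen for the lean of Cxcl2 and Cxcl3 to rigid fixation, and several probe sets read Cxcl3. Over all probe sets, limma called 0 (0%) for fixation once p-values were adjusted, and 1778 (5.73%) had an unadjusted p under 0.05. The same model without moderated variance also called 0 after adjustment.

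**Figure D2:**
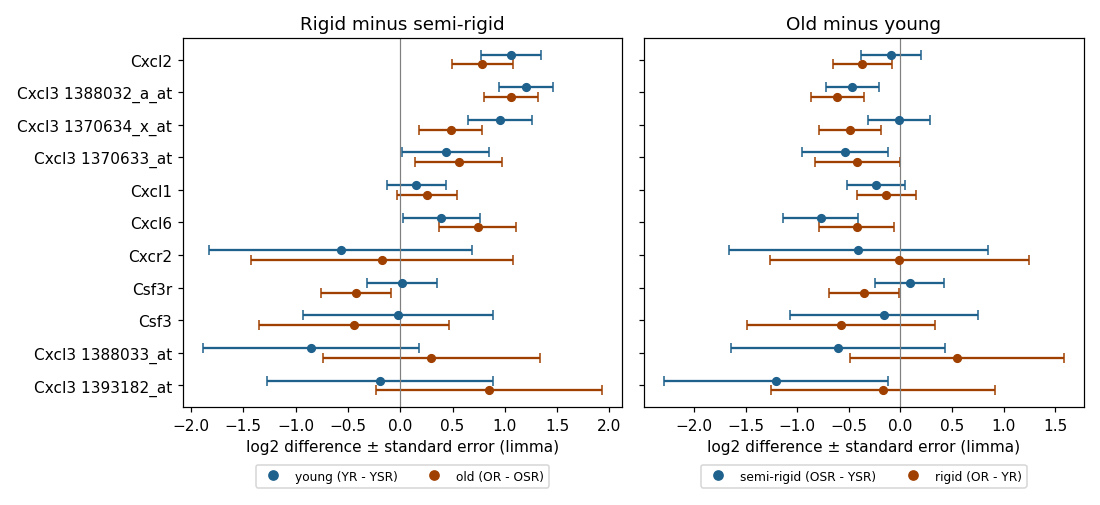
Log2 differences with standard errors from limma (horizontal axes) for the 11 probe sets (vertical axis), on the left rigid minus semi-rigid fixation in young and in old rats, on the right old minus young rats with semi-rigid and with rigid fixation. The 6 brighter chemokine probe sets lie right of 0 at both ages on the left, while Cxcr2, Csf3 and the 2 dim Cxcl3 probe sets have standard errors of 0.91 to 1.25.

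Cxcr2, the receptor that binds these ligands on neutrophils, was dim and scattered. Its signals in arrays 1, 2 and 3, before log2 was taken, were 71.3, 48.7 and 32.6 in YSR, 5.2, 100.3 and 66.3 in YR, 64.0, 8.7 and 87.0 in OSR, and 7.0, 47.1 and 102.5 in OR. In 3 of the 4 groups 1 array lay over 2 log2 units below the others, so the groups overlapped. Rigid minus semi-rigid fixation was -0.57 in young and -0.17 in old rats (standard error 1.25 each). Without the 2 arrays of high Gapdh ratio it was -0.29 in young and 0.93 in old rats, and its average over age turned from -0.37 to 0.32.

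Csf3r, the receptor through which granulocyte colony-stimulating factor acts on neutrophils and their precursors, was bright and gave a tighter reading. The log2 signals of arrays 1, 2 and 3 were 10.27, 9.38 and 9.50 in YSR, 9.61, 10.35 and 9.24 in YR, 9.81, 9.57 and 10.03 in OSR, and 9.31, 8.83 and 10.01 in OR. All 4 groups overlapped. Rigid minus semi-rigid fixation was 0.02 in young and -0.42 in old rats (standard error 0.34 each), the latter against a pooled SD of 0.49. The values were 0.29 and -0.39 without the 2 arrays of high Gapdh ratio.

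Csf3 itself, which encodes the growth factor, had log2 signals between 2.91 and 5.94, at the percentile 17.1 of all probe sets in the mean. Its group means were 4.70 ± 1.59 for YSR and 4.68 ± 0.85 for YR, and 4.54 ± 0.96 for OSR and 4.10 ± 1.05 for OR (SD, n = 3). Rigid minus semi-rigid fixation was -0.02 in young and -0.44 in old rats (standard error 0.91 each), and 0.60 and -1.04 without the 2 arrays of high Gapdh ratio. The files used here hold no detection calls, so whether Csf3 and Cxcr2 were detected cannot be read from them.

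**Figure D3:**
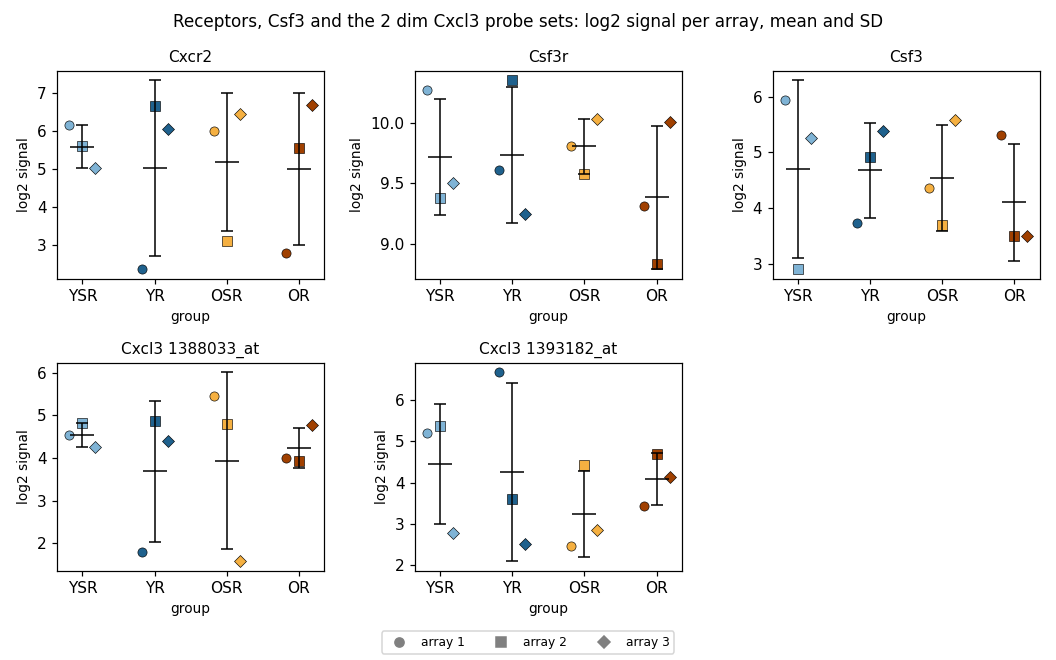
Log2 signal (vertical axes) of Cxcr2, Csf3r, Csf3 and the 2 dim Cxcl3 probe sets in the 4 groups (horizontal axes), with 1 symbol per array and the group mean with SD as bars. Arrays of 1 group lie up to several log2 units apart for each of them except Csf3r, whose 12 arrays range over 1.52.

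Age was not used to choose the genes, and none of them passed its test. Averaged over fixation, the old minus young difference was below 0 at all 11 probe sets, as it was at 46.9% of all probe sets, and 5 of the 11 belong to Cxcl3. Cxcl6 had -0.60 with a standard error of 0.26 (adjusted p = 0.547 from limma). Cxcl3 at 1388032_a_at had -0.54 with a standard error of 0.18 (adjusted p = 0.399 from limma). These were the 2 with an unadjusted p under 0.05, against 8.59% of all probe sets. Limma called 0 of the 11 and 2 of all 31042 probe sets (0.00644%) at an adjusted p under 0.05. Without moderated variance the same model called 0 of all probe sets.

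Arrays of old and young rats were separated without overlap only under semi-rigid fixation. Every OSR array lay below every YSR array for Cxcl6 and for Cxcl3 at 1370633_at, 2 of 11 against 4.9% of all probe sets. No probe set had every OR array below every YR array, against 6.04% of all probe sets. With both fixators together, 0 of the 11 had every old array below every young array or above it, against 0.171% and 0.229% of all probe sets. Old minus young rats gave -0.23 for Cxcl2 and -0.19 for Cxcl1, each with a standard error of 0.20 (adjusted p = 0.788 and 0.823 from limma). For Cxcl3 the difference was -0.48 at 1370633_at (adjusted p = 0.677 from limma) and -0.25 at 1370634_x_at (adjusted p = 0.782). Csf3r had -0.13 (standard error 0.24, adjusted p = 0.903 from limma), Csf3 -0.37 (standard error 0.64, adjusted p = 0.899) and Cxcr2 -0.21 (standard error 0.89, adjusted p = 0.963). The dim Cxcl3 probe sets had -0.03 and -0.69 (adjusted p = 0.993 and 0.829 from limma).

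The interaction, which is the rigid minus semi-rigid difference in old rats minus that in young rats, was tested for the genes other than Cxcl2 and Cxcl3. Cxcl1 had 0.10 ± 0.40 and Cxcl6 0.35 ± 0.52 (± standard error, adjusted p = 0.995 and 0.99 from limma). Cxcr2 had 0.40 ± 1.77, Csf3r -0.44 ± 0.48 and Csf3 -0.42 ± 1.29 (± standard error, adjusted p = 0.996, 0.99 and 0.995 from limma). For Cxcl2 the value was -0.27 (standard error 0.41). For the bright Cxcl3 probe sets it was 0.12 at 1370633_at, -0.47 at 1370634_x_at and -0.15 at 1388032_a_at (standard errors 0.59, 0.43 and 0.37), and these were not tested. Limma called 0 (0%) of all probe sets for the interaction, and 1181 (3.8%) had an unadjusted p under 0.05. After adjustment the same model without moderated variance also called 0.

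Cxcl2 and Cxcl3 varied together from array to array. Pearson's r over the 12 arrays was 0.93 between Cxcl2 and Cxcl3 at 1388032_a_at, 0.86 at 1370634_x_at and 0.71 at 1370633_at. After the mean of each group was subtracted it was 0.84, 0.68 and 0.66. The values share arrays and their scaling, so these correlations are a description. Whether probes of 1 of these related genes also bind transcripts of the other was not tested. Within both rigid groups array 3 was the lowest for Cxcl2, for Cxcl1 and for the 3 bright Cxcl3 probe sets. Cxcl1 followed Cxcl2 less closely (r = 0.53), Cxcl6 had r = 0.57 over the arrays but 0.20 within groups, and Csf3r had r = -0.07.

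Among 12367 probe sets of 1 gene symbol at or above the median signal, the one most like Cxcl2 over the 12 arrays was that of Cxcl3 (1388032_a_at). It was followed by Ccnc, which encodes cyclin C, with r = 0.89, Trmt10b, a transfer RNA methyltransferase, with 0.88, Cxcl3 again (1370634_x_at) with 0.86, Ndufv1, a subunit of respiratory complex I, with 0.85, and Lsm14a, an RNA-binding protein, with 0.84. The differences of the 4 genes other than Cxcl3 between rigid and semi-rigid fixation were 0.14 to 0.42, against 0.92 for Cxcl2. After group means were subtracted, r with Cxcl2 was 0.93 for Trmt10b, above 0.84 and 0.68 for Cxcl3 at 1388032_a_at and 1370634_x_at. For Ccnc, Ndufv1 and Lsm14a it was 0.64, 0.76 and 0.66. The ranks over the 12 arrays include the group differences on which Cxcl2 and Cxcl3 were chosen, so they are a description. Most like the brightest Cxcl3 probe set (1370633_at) were Pvt1, a long non-coding RNA, with r = 0.89, Sapcd2 with 0.87, Ell, a transcription elongation factor, with 0.85, Ttbk2, a tubulin kinase, with 0.84 and Cct6a, a chaperonin subunit, with 0.83.

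**Figure D4:**
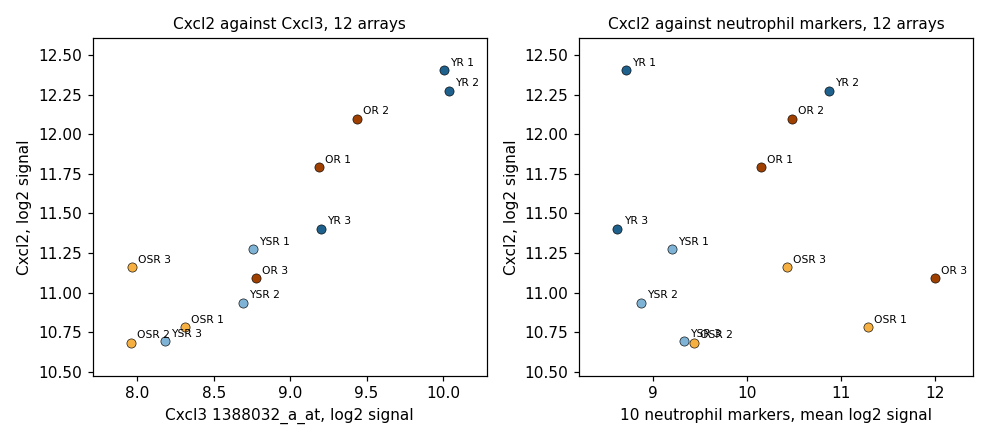
Log2 signal of Cxcl2 (vertical axes) in each of the 12 arrays against that of Cxcl3 at 1388032_a_at (left) and against the mean log2 signal of 10 neutrophil markers (right), coloured and labelled by group and array. Cxcl2 follows Cxcl3 (r = 0.93) and not the neutrophil markers (r = -0.02).

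The neutrophil markers did not follow the chemokines across the arrays. Of 20 listed markers 10 had a probe set, and S100a9 and S100a8, the subunits of calprotectin, were the brightest. Their mean log2 signal in arrays 1, 2 and 3 was 9.20, 8.88 and 9.33 in YSR, 8.72, 10.87 and 8.62 in YR, 11.29, 9.44 and 10.42 in OSR, and 10.15, 10.48 and 12.01 in OR. OR array 3 thus had the highest level of neutrophil markers of the 12 and the lowest Cxcl2 signal among the rigid arrays. Over the arrays r was -0.02 with Cxcl2 and -0.66 with Cxcl6 (-0.07 and -0.86 within groups). Cxcr2 and Csf3r, which neutrophils carry, had 0.44 and 0.34 (0.69 and 0.73 within groups). With rigid fixation 8 of the 10 markers were higher and 2 lower, with a median difference of 0.43 over all 10. An unadjusted p under 0.05 was found for 1 of the higher markers, against 5.73% of all probe sets in either direction. By age, 9 of the 10 markers were higher in old rats with a median difference of 1.56, against 0.02 over all probe sets, whereas the ligands lay below 0. In means over YSR, YR, OSR and OR, S100a9 had 12.76, 13.36, 14.29 and 14.73. The difference was 1.45 ± 0.36 for S100a9 and 1.68 ± 0.43 for S100a8 (± standard error, adjusted p = 0.241 and 0.257 from limma). In all, 7 of the 10 had an unadjusted p under 0.05 for age, against 8.59% of all probe sets. The adjusted test for age called 0 of the 10, against 0.00644% of all probe sets.

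No macrophage or endothelial marker passed the test for fixation, which 0 of all 31042 probe sets passed. Of 12 monocyte and macrophage markers, 10 were lower with rigid fixation (median -0.25), 0 of them at an unadjusted p under 0.05, against 5.73% of all probe sets. Their mean log2 signal was 11.56 to 11.64 in YSR, 11.35 to 11.55 in YR, 11.31 to 11.60 in OSR and 10.69 to 11.59 in OR. Over the arrays the correlation with Cxcl2 was -0.51, and -0.59 within groups. Cd68 and Lyz2, the brightest, had group means from 13.31 to 13.89 and from 14.99 to 15.34. Of 10 endothelial markers, 9 were higher with rigid fixation (median 0.35), 5 at an unadjusted p under 0.05, against 5.73% of all probe sets. Their mean signals were 9.23 to 9.55 in YSR, 9.32 to 9.66 in YR, 9.18 to 10.23 in OSR and 9.86 to 10.73 in OR. The brightest of these, Emcn and Eng, differed by 0.62 and -0.03. Each marker of both lists lay above the median signal of all probe sets in the mean. For the endothelial markers the correlation with Cxcl2 was 0.26 over the arrays and 0.29 within groups. The part of macrophages and endothelium in the chemokine signals was not tested.

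In the remaining marker lists limma called 0 genes for fixation, as over all probe sets. The median was 0.10 over 12 fibroblast markers (9 higher), 0.14 over 11 T and NK cell markers (7 higher), 0.81 over 7 erythroid markers (7 higher) and 0.23 over 8 platelet markers (8 higher). Over 11 skeletal muscle markers it was -0.48 (10 lower). Across these 5 lists 1 gene, the fibroblast marker Pdgfrb (0.60), had an unadjusted p under 0.05, against 5.73% of all probe sets. The mean of the fibroblast markers correlated with Cxcl2 at -0.24 over the arrays and -0.70 within groups, beyond the within-group value of the macrophage markers.

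Among genes that lie upstream of the chemokines none passed the test for fixation, which 0 of all 31042 probe sets passed. Of 17 measured upstream cytokines and receptors 6 were higher and 11 lower (median -0.13, against 0.00 over all probe sets), and 0 passed in limma's adjusted test. Il1b, which induces the chemokines, had log2 means of 10.18 for YSR and 10.48 for YR, and 10.09 for OSR and 10.37 for OR, a fixation difference of 0.29 (standard error 0.36, adjusted p = 0.921 from limma). Tnf, another inducer, had 8.73 and 8.23 in young and 7.80 and 7.46 in old rats, a difference of -0.42 (standard error 0.34, adjusted p = 0.894 from limma). Both were named for their role after their values had been seen. Il1r2, a decoy receptor for interleukin-1, had 0.62 ± 0.22 and Tnfrsf1a, a receptor of tumour necrosis factor, -0.19 ± 0.09 (± standard error, adjusted p = 0.845 from limma for each). By age, 6 of the 17 were higher and 11 lower, with Il6 at 0.67 and Il1r1, the signalling receptor of interleukin-1, at -0.41 (adjusted p = 0.257 and 0.388 from limma).

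**Figure D5:**
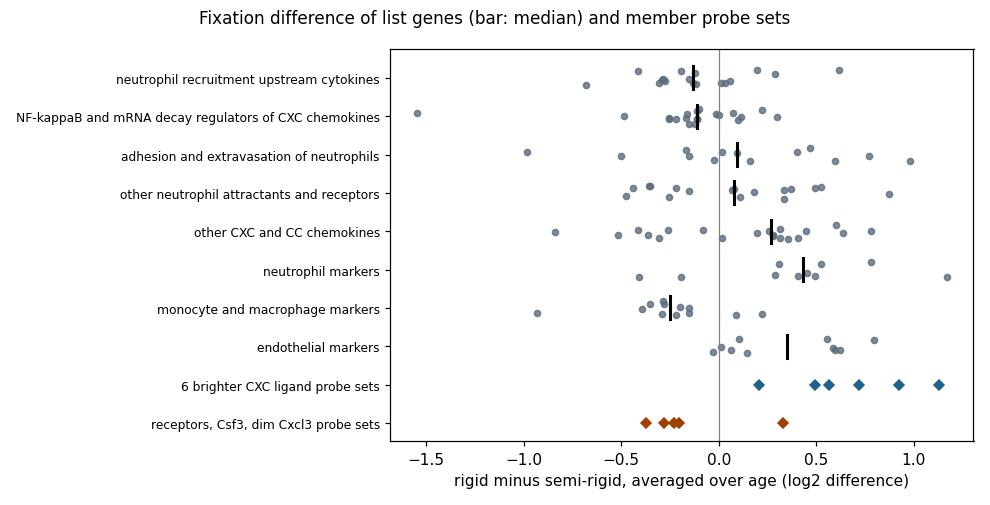
Rigid minus semi-rigid difference averaged over age (horizontal axis, log2) for the genes of 8 lists (points, with the median as a bar) and for the 11 probe sets described here (diamonds). The 6 brighter chemokine probe sets lie between 0.21 and 1.13, and the remaining diamonds between -0.37 and 0.33. The medians of upstream cytokines and of NF-kappaB and decay regulators are -0.13 and -0.11. Nothing is read from the distance to the lists, because the genes were chosen for the lean of Cxcl2 and Cxcl3 to rigid fixation.

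Of 20 regulators of transcription and mRNA decay, 6 were higher and 14 lower with rigid fixation (median -0.11). The adjusted test called 0 of them, as over all probe sets. Nfkb1, a subunit of NF-kappaB, had 0.30 ± 0.14 and Socs3, an inhibitor of cytokine signalling, -1.55 ± 0.49 (± standard error, adjusted p = 0.845 from limma for each). Old minus young rats differed by 0.62 for Fos, a subunit of AP-1, and by 1.35 for Ptgs2, the inducible cyclooxygenase (adjusted p = 0.282 and 0.215 from limma).

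Among genes of adhesion and extravasation, 8 of 13 were higher and 5 lower with rigid fixation (median 0.09), and 0 passed, as over all probe sets. Unadjusted p-values under 0.05 were found for 3 genes with higher and 2 with lower means under rigid fixation, against 5.73% of all probe sets in either direction. The higher ones were Sele, the endothelial selectin, with 0.98, Pecam1, a junction protein of endothelium and leukocytes, with 0.59, and F11r, another junction protein, with 0.47 (adjusted p = 0.845 from limma for each), named after their values had been seen. The lower ones were the leukocyte integrin chains Itgb2 and Itgam, while the integrin chain Itgal had 0.09. Itgb2, the common beta chain, had log2 means of 12.72 and 12.36 in YSR and YR and of 12.44 and 11.80 in OSR and OR, a difference of -0.50 (standard error 0.13, adjusted p = 0.84 from limma). Itgam, its partner on neutrophils and macrophages, differed by -0.98 (standard error 0.31, adjusted p = 0.845). The endothelial adhesion genes Vcam1 and Selp differed by 0.93 and 1.10 between old and young rats (adjusted p = 0.212 and 0.256 from limma).

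Of 17 other neutrophil attractants and their receptors, 10 were higher and 7 lower with rigid fixation (median 0.08), and 0 passed, as over all probe sets. Ptafr and C5ar1, receptors for platelet-activating factor and complement C5a, differed by -0.44 (standard error 0.12) and -0.36 (standard error 0.16), each with an adjusted p = 0.845 from limma. Ccl3, an attractant of monocytes and neutrophils, differed by -0.97 between old and young rats (adjusted p = 0.207 from limma). Cxcr1, another receptor for CXC ligands, had group means from 5.61 to 6.10, below the median of all probe sets, and was named for its role after its values had been seen.

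Of 20 other CXC and CC chemokines, 13 were higher and 7 lower with rigid fixation (median 0.27), and 0 passed, as over all probe sets. Cxcl12, which retains and recruits progenitor cells, had log2 means of 10.56 and 11.04 in YSR and YR and of 11.62 and 12.42 in OSR and OR. It differed by 0.64 between rigid and semi-rigid fixation (adjusted p = 0.845 from limma) and by 1.22 between old and young rats (adjusted p = 0.0967). Cxcl14, which attracts monocytes, differed by -0.42 for fixation (adjusted p = 0.845 from limma), and Cxcl13, a B cell attractant, by 1.87 for age (adjusted p = 0.129).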

How the data were processed

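The deposited values are linear intensity values of an Affymetrix rat expression GeneChip, 1 column per array, which the authors scaled to a trimmed mean of 500.2 on each. The processing notes name GCOS 1.2, while the methods name PLIER summaries, which were not used here. Values under 1 were set to 1 before log2 was taken. Without 57 control probe sets, 31042 were fitted over all 12 arrays with limma 3.58.1 (intensity trend) in R 4.3.3, and p-values were adjusted by the Benjamini-Hochberg method. Array number limits precision, and the spread is between RNA pools. Probe sets of exactly 1 member symbol were kept, matched through the gene identifier. In gene lists the brightest probe set of each gene was used, without set tests. The 2 genes of smallest p for fixation and for age at or above the median signal were named, and the 2 brightest of each marker list. The members, the 13 lists and the rule for naming genes were chosen with earlier results of these data known. Replicate numbers paired no arrays (median correlation of deviations 0.019 over 18 same-numbered pairs, 0.020 over 36 others). The fit was tested on simulated data. Summaries and plots used matplotlib 3.10.9 and pandas 2.3.3 in Python 3.11.15. Alternatives were quantile normalization, a pseudocount of 16, no dim probe sets, no trend and the ordinary t-test without moderated variance. Others were a replicate block, omission of the arrays of high Gapdh ratio and omission of each array.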

Additional observations from a re-analysis of the deposited data

How the results depend on the processing

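The rigid minus semi-rigid difference kept its sign in all 19 alternatives for Cxcl2 (0.81 to 1.08), Cxcl1 (0.01 to 0.31), Csf3r (-0.36 to -0.05) and the 3 bright Cxcl3 probe sets (1.04 to 1.27 at 1388032_a_at, 0.59 to 0.90 at 1370634_x_at, 0.20 to 0.76 at 1370633_at), and in all 18 that could be run for Cxcl6 (0.39 to 0.71). It turned in 3 of 18 for Cxcr2 and for Csf3, and in 2 of 18 for each dim Cxcl3 probe set. Omission of dim probe sets or of the trend, the ordinary t-test and the replicate block leave the difference itself unchanged. These alternatives could therefore not turn its sign. No member passed for age or the interaction in any alternative, and the adjusted p for age lay between 0.282 and 0.642 for Cxcl3 at 1388032_a_at and between 0.411 and 0.879 for Cxcl6. The number of probe sets called for age was 2, and it was 4 without the intensity trend and 0 with the ordinary t-test (2492 unadjusted). It was 1 with the replicate block and 1 without the 2 arrays of high Gapdh ratio. It ranged from 1 to 80 when 1 array was left out, with 80 without OSR array 3, 4 without YR array 2 and 1 without any of YSR arrays 1 and 2, YR arrays 1 and 3, OSR array 2 or OR arrays 1, 2 and 3. For fixation it was 3 without the 2 arrays of high Gapdh ratio and ranged from 0 to 1 when 1 array was left out, with 1 without YSR array 1. For the interaction it was 0 in all 19. The replicate block changed no other call. The age difference turned for Cxcl3 at 1388033_at to 0.0157 with a pseudocount of 16 and 0.0275 without the 2 arrays of high Gapdh ratio, and the latter also turned it for Cxcr2 (0.48) and Csf3r (0.0246) and the interaction of Cxcl1 (-0.18). Leaving out 1 array gave age differences of -0.29 to 0.0118 for Cxcl1, -0.50 to 0.56 for Cxcl3 at 1388033_at, -0.87 to 0.34 for Cxcr2 and -0.29 to 0.0229 for Csf3r, and interactions of -0.29 to 0.31 for Cxcl1, -0.93 to 1.50 for Cxcr2 and -1.04 to 0.48 for Csf3. The cause was not tested. The genes other than Cxcl3 had 1 probe set each, so no other probe set could be tried for them.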

Other observations

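The 2 platelet chemokine genes that lie between Cxcl3 and Cxcl6 on chromosome 14 were looked at for their position, after their values had been seen. Ppbp, which is cut to a Cxcr2 ligand when platelets release it, had log2 means of 7.55 ± 0.59 for YSR and 7.97 ± 1.44 for YR, and 9.18 ± 1.36 for OSR and 9.49 ± 0.56 for OR (SD, n = 3). Its old minus young difference of 1.58 did not pass (standard error 0.50, adjusted p = 0.372 from limma), and its rigid minus semi-rigid difference was 0.37. Pf4, platelet factor 4, had 0.35 for age (adjusted p = 0.647 from limma) and 0.11 for fixation. The difference between these genes and their neighbours was not tested.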
